A study of Homo sapiens with 14 samples.

Results

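The 7 initiator methionine tRNA genes (tRNA-iMet-CAT) examined here were given by their hg19 coordinates, and every deposited cDNA count on the gene strand within 20 nt of a gene was assigned to it. Together they held 2161 of the cDNA counts of 14 libraries, in which 44999 loci were formed by joining positions 20 nt or less apart. The genes were selected on their counts in FICC-Seq, iCLIP and miCLIP, so their levels by method are described without a test. The first lies at chr1:153643726-153643797 on the plus strand and is named tRNA-iMet-CAT-1-1. The next lies at chr17:80452597-80452668 on the minus strand and is called the chr17 copy. The other 5 lie on chromosome 6, namely chr6:26286754-26286825 on the plus strand (chr6 copy A) and, on the minus strand, chr6:26313352-26313423 (copy B), chr6:26330529-26330600 (copy C), chr6:27300764-27300835 (tRNA-iMet-CAT-1-5) and chr6:27560600-27560671 (copy D). In the GENCODE annotation used here, copies A and C overlap unnamed unclassified or noncoding genes on their own strand. Copies B and C overlap unclassified genes on the opposite strand, and the other 4 genes overlap no annotated gene.

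TRMT2A was immunoprecipitated with the RNA linked to it, and the position at which each cDNA ended was counted. In FICC-Seq, cells had 100 µM 5-fluorouracil (5FU) for 24 h, which enters RNA and traps the endogenous enzyme on the uridine it acts on. The treatment is taken from the protocol and the sample descriptions, as the condition given for each of these libraries in the labels is untreated. FICC-Seq HEK293 replicates 1 and 3 are also listed with the same 5′ barcode, and their counts were not identical. In iCLIP, UV light linked endogenous TRMT2A to RNA in cells without 5FU, and the same antibody was used. Each was done with 3 libraries from HEK293, a human embryonic kidney line, and 3 from HAP1, a near-haploid human line. In miCLIP, 2 libraries came from HEK293 cells transfected with FLAG-tagged TRMT2A whose catalytic glutamate was changed to alanine, immunoprecipitated through the tag, so that the protein was ectopic as well as mutated. No library without TRMT2A or without crosslinking was analysed here. FICC-Seq libraries held 15982 to 38957 counts, iCLIP libraries 7002 to 17432 and miCLIP libraries 39024 and 104605.

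The initiator tRNA brings the first methionine to the ribosome, while elongator methionine tRNAs serve internal codons. TRMT2A makes 5-methyluridine at position 54 in the T-loop of cytosolic tRNAs. Initiator tRNAs of animals have adenosine at that position, so the uridine that the enzyme methylates elsewhere is missing. Adenosine 58 of the T-loop is commonly methylated to 1-methyladenosine, which halts reverse transcription.

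The T-arm sequences show this difference and place the positions used below. In the hg19 sequence (GRCh37), all 7 initiator genes were identical over their 72 bases. Positions were counted back from 73 at the last base of the gene, and a cDNA was assigned to the base next to its end. Each line gives positions 49 to 73 of the DNA strand that matches the RNA, with the T-loop, positions 54 to 60, in capitals.
Initiator, all 7 genes: gatggATCGAAAccatcctctgcta
tRNA-Met-CAT-6-1 (chr16:87417628-87417652, minus strand): gtgagTTCGAGCctcacacggggca
tRNA-Met-CAT-2-1 (chr16:71460444-71460468, plus strand): ctgagTTCGAGCctcagagagggca
tRNA-Met-CAT-3-1 (chr6:28912400-28912424, plus strand): ctgagTTCGAACctcagagggggca
The first capital is A in the initiator genes and T in the elongator genes, and position 58 is A in all of them. Of 248 tRNA loci listed by the study, a T-arm could be read at 234, of which 232 had T at position 54. The remaining 2 with A were tRNA-iMet-CAT-1-1 and tRNA-iMet-CAT-1-5. The reading accepted only A or T at position 54 and only A at position 58, so a T-arm with another base there counted as not read. The loci listed are also only those with enough counts in these data, so this is no survey of all tRNA genes.

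Because the 7 genes are identical, a cDNA can be placed on one of them only through bases outside the gene or through its mismatches. The study kept reads that mapped uniquely. The 10 bases after the gene differed in all 7. They are shown in capitals for the gene with most counts and for 2 others, after the last 5 bases of the gene.
tRNA-iMet-CAT-1-1: tgctaTCGGAGTTTT
tRNA-iMet-CAT-1-5: tgctaTGAGTTTTAC
chr6 copy A: tgctaGGTCCTTTTT
Mature tRNAs end in an added CCA instead. A cDNA with the first C's of that tail, CC, differed from the genome by 1 base at tRNA-iMet-CAT-1-1 and by 2 bases at each of the other 6. With CCA it differed by 2 bases at tRNA-iMet-CAT-1-1 and tRNA-iMet-CAT-1-5 and by 3 at the others. For a cDNA of the mature tRNA ending at position 48 or 54 and carrying CC, tRNA-iMet-CAT-1-1 was the only best place in the genome. This did not hold for the other tails. With CCA there were 3 best places at either position, 2 of them on the 7 genes. With C there were 8 at position 48 and 9 at position 54, including all 7 genes. For a cDNA ending at position 58, the best places with C, CC or CCA numbered 4, 2 and 6, and none of them was on the 7 genes. At position 57 with CC there were 14 best places, 1 of them on the 7 genes. Without a tail, a cDNA ending at position 48 or 54 matched 8 places equally, the 7 genes and a further identical copy. The part of these values in the counts per gene was not tested, so counts of a gene are counts of cDNAs placed there, not the output of that gene.

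In FICC-Seq the 7 genes held 14 cDNA counts in 6 libraries. The HEK293 libraries had 0, 1 and 0 counts and the HAP1 libraries 0, 7 and 6. The 3 libraries at 0 allow up to 126, 106 and 101 CPM (counts scaled to the total of the library and given as CPM, from 3 counts), and such limits and the intervals below cover counting error only. In iCLIP the genes held 1900 counts, with 510, 361 and 333 in the HEK293 libraries and 175, 253 and 268 in the HAP1 libraries. These were 2.93%, 4.52% and 4.76% of the HEK293 libraries and 1.59%, 2.69% and 3.33% of the HAP1 libraries. The miCLIP libraries had 69 and 178 counts, or 0.177% and 0.170% of all counts. Every iCLIP library stood above both miCLIP libraries and these above every FICC-Seq library. The lowest iCLIP library had 81.7 times the CPM of the highest FICC-Seq library. As whole cultures were lysed, more RNA and more linking per RNA cannot be told apart in these levels.

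The order of methods was therefore iCLIP, miCLIP and FICC-Seq. Each of the 7 genes had a higher CPM in every iCLIP library than in every FICC-Seq library, beside 5.26% of 1502 loci with at least 10 counts over the 14 libraries. The genes passed that minimum through iCLIP and were picked with this contrast known, so nothing is read from their count. In HEK293 cells, FICC-Seq gave 14.7 CPM over 3 libraries (95% exact Poisson interval 0.372 to 81.8), and in HAP1 cells 124 CPM (66.1 to 212).

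**Figure D1:**
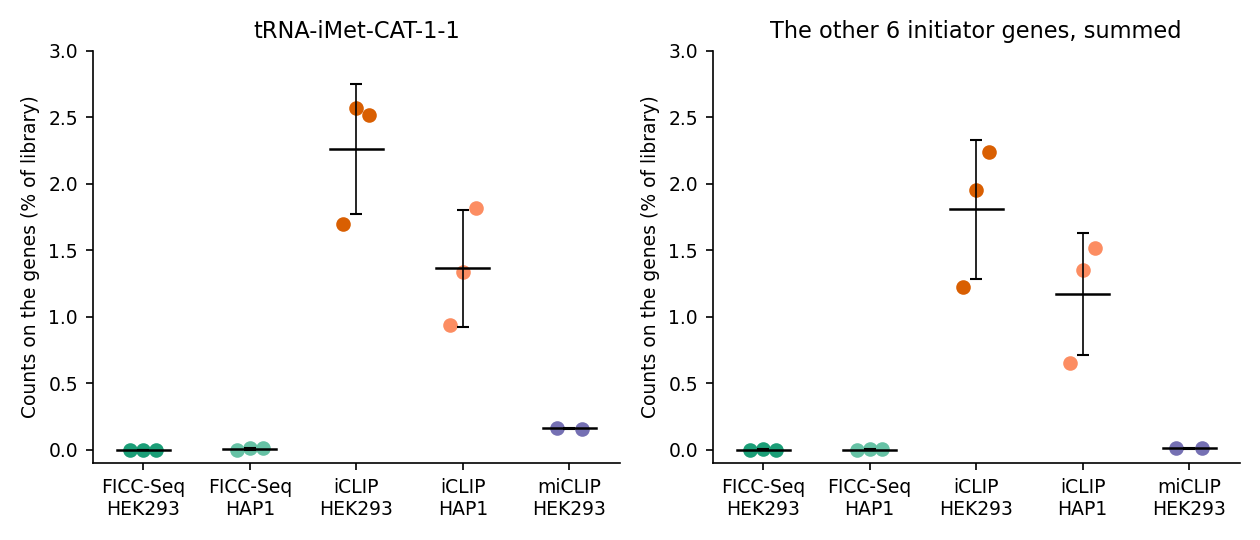
Counts on tRNA-iMet-CAT-1-1 (left) and on the other 6 initiator genes summed (right) as a percentage of all counts of the library, with one point for each library, a line at the mean and a bar of 1 SD. The iCLIP libraries stand highest, miCLIP is visible only on the left at 0.164% and 0.160%, and FICC-Seq lies at or next to 0.

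tRNA-iMet-CAT-1-1 held more counts than any other of the 7 genes in each iCLIP and miCLIP library. It had 296, 205 and 176 counts in the iCLIP HEK293 libraries, 103, 126 and 146 in the HAP1 libraries, and 64 and 167 in miCLIP. All of its FICC-Seq counts, 6 and 4, were in HAP1 replicates 2 and 3, and 0 in 68132 counts of the HEK293 libraries allows up to 44.0 CPM. By counts it ranked 6 of 7704 loci in iCLIP of HEK293 cells, 8 of 7076 in iCLIP of HAP1 cells, 162 of 28994 in miCLIP and 496 of 6046 in FICC-Seq of HAP1 cells. Its share of the counts on the 7 genes was 55.9% ± 2.71 (SD, n = 3) in iCLIP of HEK293 cells and 54.4% ± 4.53 (SD, n = 3) in iCLIP of HAP1 cells. In iCLIP HAP1 replicate 2 it had 126 of 253 counts, fewer than the other 6 genes together. In miCLIP the share was 92.8% and 93.8%, so almost no counts were left for the other genes.

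The other 6 genes, which are as long, followed at lower iCLIP levels. The chr17 copy had 51, 39 and 34 counts in the HEK293 libraries and 16, 33 and 23 in the HAP1 libraries. It had 0 in both miCLIP libraries, which allows up to 20.9 CPM over both. chr6 copy A had 26 to 41 counts in the HEK293 libraries and 16 to 21 in the HAP1 libraries, and also 0 in miCLIP. These are the 2 genes that were seen in every iCLIP library and in neither miCLIP library. tRNA-iMet-CAT-1-5 had 36, 39 and 38 counts in iCLIP of HEK293 cells, 14, 24 and 21 in iCLIP of HAP1 cells, and 2 and 8 in miCLIP. Copy D had 29 to 46 and 11 to 33 counts in iCLIP of the 2 lines and 0 and 1 in miCLIP. Copy C had 16 to 32 and 11 to 24, with 1 and 2 in miCLIP. The lowest was copy B, with 8, 4 and 12 counts in HEK293 libraries and 4, 3 and 3 in HAP1 libraries.

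In iCLIP of HEK293 cells the mean levels ran from 22594 CPM ± 4869 (SD, n = 3) for tRNA-iMet-CAT-1-1 to 891 CPM ± 713 for copy B. Between them lay the chr17 copy at 4221 CPM ± 1122, tRNA-iMet-CAT-1-5 at 4125 ± 1805, copy D at 3566 ± 896, copy A at 3149 ± 710 and copy C at 2125 ± 251. Neighbours among the first 4 of these 5 differed by less than their SD. In HAP1 cells the ends of the order were the same, tRNA-iMet-CAT-1-1 at 13633 CPM ± 4415 and copy B at 352 ± 29.1, and the 5 genes between them ran from 1930 CPM (copy C) to 2745 CPM (copy D) with SDs of 595 to 1517. No counts were found on the opposite strand of any of the 7 genes.

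The cDNA ends clustered in the T-loop, at A58. In iCLIP, 838 of 1900 counts were at position 58. By library, position 58 held 48.4%, 43.2% and 29.7% of the counts in HEK293 cells and 52%, 45.8% and 48.1% in HAP1 cells. In miCLIP it held 69.6% and 71.3%. Position 58 was thus higher in both miCLIP libraries than in every iCLIP library. In FICC-Seq, 5 counts were at position 58 and 4 at position 59, all on tRNA-iMet-CAT-1-1, with the 5 in HAP1 replicate 2 and the 4 in HAP1 replicate 3. cDNAs of mature initiator tRNA ending at position 58 would carry only 15 bases of the gene, which occur at 26 places in the genome, and with a tail none of their best places was on the 7 genes, as given above.

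The second cluster in iCLIP lay just 5′ of the T-stem, at positions 46 to 48. It held 20.9% ± 4.14 (SD, n = 3) of the counts in HEK293 cells and 16.7% ± 7.41 (SD, n = 3) in HAP1 cells, most of it at position 48. In miCLIP, 1 of 247 counts was in this stretch. The 5′ side of the T-stem, positions 49 to 53, was nearly empty, with 20 of 1204 counts in iCLIP of HEK293 cells, 2 of 696 in HAP1 cells and 2 of 247 in miCLIP.

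At position 54, the adenosine in place of the target uridine, the 7 genes had 68 counts in iCLIP and 35 in miCLIP. For catalytic crosslinks, as in FICC-Seq and miCLIP, the paper predicts that the methylated base is more often the one after the counted position. A target at base 54 would then be counted at position 53 in these methods, and a miCLIP count at position 54 need not mark base 54. None of the 14 FICC-Seq counts was at position 53 or 54. In iCLIP, no count was at position 53, and position 54 held 3.76% ± 3.06 (SD, n = 3) in HEK293 cells and 3.68% ± 2.34 (SD, n = 3) in HAP1 cells. In miCLIP position 54 held 10.1% and 15.7%, more than in each iCLIP library. Of the miCLIP counts at position 54, 34 of 35 were on tRNA-iMet-CAT-1-1.

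**Figure D2:**
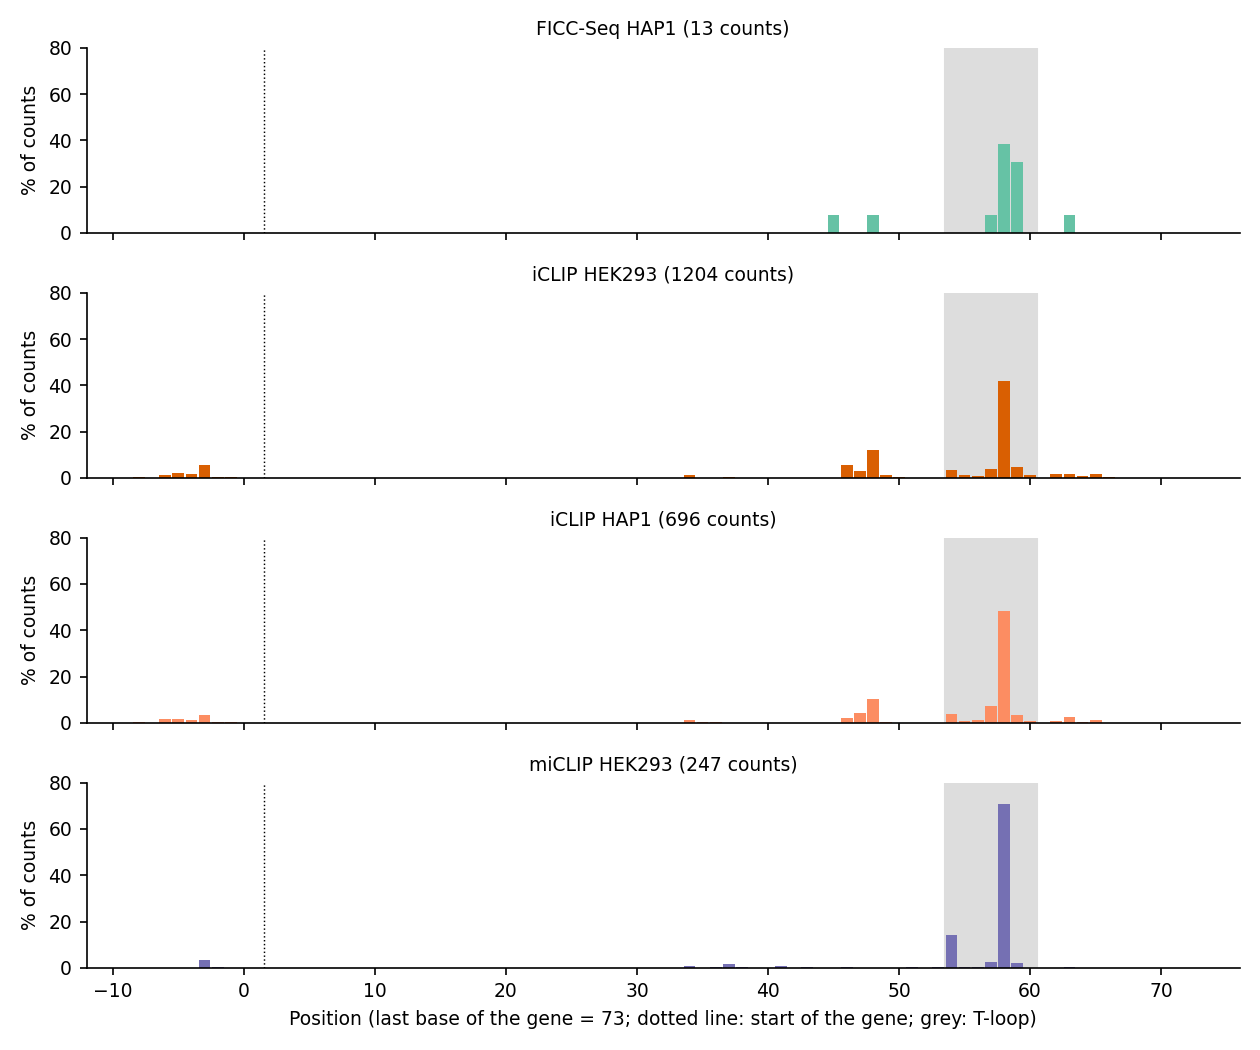
Percentage of the counts on the 7 genes at each position, with the libraries of a group summed, the T-loop (positions 54 to 60) in grey and the start of the gene as a dotted line. Position 58 is the highest bar in all 4 groups, the bars at 46 to 48 and before the gene are seen in both iCLIP groups, and position 54 is higher in miCLIP (14.2%) than in iCLIP of HEK293 (3.49%) and HAP1 cells (3.74%). FICC-Seq of HEK293 cells, with 1 count, is not drawn.

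The genes shared this profile with 1 exception. Over the 6 iCLIP libraries, position 58 was the most counted in 6 of the 7 genes and position 48 came next in the same 6. The share at position 58 was 43.5% of 1052 counts in tRNA-iMet-CAT-1-1, 38.8% of 196 in the chr17 copy, 49.3% of 148 in copy A, 39.0% of 118 in copy C, 45.3% of 172 in tRNA-iMet-CAT-1-5 and 56.1% of 180 in copy D. Copy B, with 34 counts, had 6 at position 58 and 13 at a base 5 nt before the gene. Counts at position 54 were found in tRNA-iMet-CAT-1-1 (50), the chr17 copy (10), copy A (4) and copy D (4) and not in the other 3.

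Counts before the first base of the gene mark RNA that still carried its 5′ leader, as mature tRNA does not hold these bases. In iCLIP there were 212 such counts, of which 90 were 5 nt before the gene. They made up 4.12%, 4.71% and 32.4% of the counts on the 7 genes in HEK293 replicates 1, 2 and 3, and 3.43%, 2.77% and 19.8% in HAP1 replicates 1, 2 and 3. Replicate 3 thus stood apart in both cell lines. In miCLIP, 5 of 69 and 4 of 178 counts lay before the gene, and in FICC-Seq none of 14. The 10 bases before the gene differed in all 7 genes. A cDNA carried only those between its end and the gene, and how well they placed it was not tested. The 10 bases are shown in full, with the base that held most leader counts in iCLIP in capitals.
tRNA-iMet-CAT-1-1: agttcTagat
chr17 copy: cctTatagcc
chr6 copy A: ctggCagaac
chr6 copy B: ctgtcGagac
chr6 copy C: Tgactcgcgt
tRNA-iMet-CAT-1-5: gaaacCgctt
chr6 copy D: tgaAggggac
The most counted base was 5 nt before the gene in tRNA-iMet-CAT-1-1 (58 of 94 leader counts), copy B (13 of 18) and tRNA-iMet-CAT-1-5 (12 of 26). It was 7 nt before in the chr17 copy (14 of 27) and copy D (8 of 16), 6 nt before in copy A (7 of 13) and 10 nt before in copy C (5 of 18). All leader counts lay 3 to 10 nt before the gene.

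**Figure D3:**
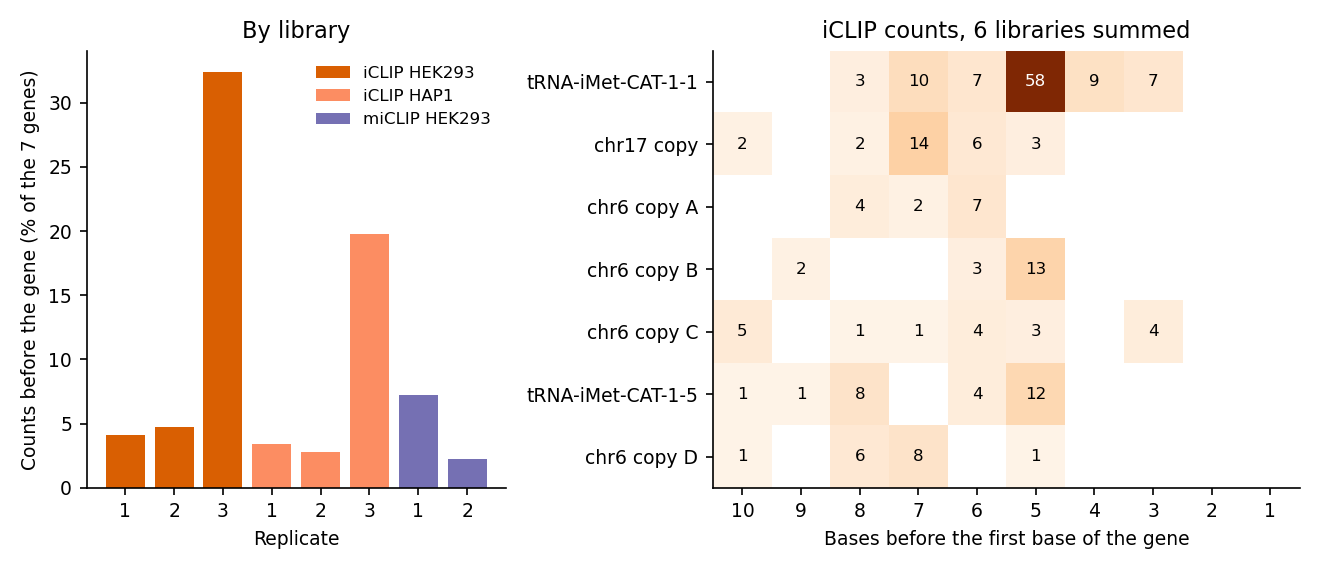
Left, counts before the first base of the gene as a percentage of the counts on the 7 genes, with a bar for each library. Replicate 3 has the highest bar in iCLIP of both HEK293 (32.4%) and HAP1 cells (19.8%). Right, the number of iCLIP counts at each base before the gene, summed over 6 libraries, for each gene, with empty cells at 0 and a darker colour for more counts.

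Next, the initiator genes were set beside the 5 elongator methionine tRNA genes that the study lists (tRNA-Met-CAT-1-1, 2-1, 3-1, 3-2 and 6-1) and 227 other tRNA genes with T54. That list holds only sites that reached 5 counts in 3 or more of the 5 experiments, so each listed gene had counts in FICC-Seq or miCLIP. Most of the initiator genes are not on it. The sets were thus not chosen alike, and the part of this in the FICC-Seq gap below was not tested. The initiator genes are also identical, so that without a tail a cDNA ending at position 48 or 54 matched 8 places equally. As the study kept uniquely mapped reads, such cDNAs can be missing from the class totals and shares. The part of this in the differences below was not tested, nor was unique placement in the other classes. In FICC-Seq, the elongator genes held 3.99% ± 0.362 (SD, n = 3) of the HEK293 libraries and 3.31% ± 0.173 (SD, n = 3) of the HAP1 libraries, where the initiator genes held 0.00209% and 0.0116%. In iCLIP the order was turned in 5 of the 6 libraries, with 4.07% ± 0.996 for the initiator and 2.33% ± 0.294 for the elongator genes in HEK293 cells, and 2.54% ± 0.883 and 2.10% ± 0.467 in HAP1 cells (SD, n = 3). The ranges overlapped in HAP1 cells. In miCLIP the elongator genes held 2.27% and 1.92%.

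The classes also differed in where the cDNAs ended. Positions 53 and 54 held 67.1% ± 4.44 (SD, n = 3) of the FICC-Seq counts of the elongator genes in HEK293 cells and 64.1% ± 3.96 (SD, n = 3) in HAP1 cells. In iCLIP, the share at positions 53 and 54 was lower for the initiator than for the elongator genes in 6 of 6 libraries, by 5.63 to 29.7 percentage points within a library. It was also lower than for the other genes with T54 in 6 of 6 libraries. The elongator genes were not alike in this. tRNA-Met-CAT-6-1 held 478 of the 755 iCLIP counts of these genes in HEK293 cells, with 130 at positions 53 and 54. tRNA-Met-CAT-3-2 had 0 of 73 there in HEK293 cells and 5 of 102 in HAP1 cells, and tRNA-Met-CAT-3-1 had 4 of 30 and 4 of 51, so a low share was also found in elongator genes. In miCLIP the share at positions 53 and 54 was 10.1% and 16.3% for the initiator genes, 45.3% and 43.1% for the elongator genes, and 48.4% and 43.8% for the others. This gap lay at position 53, the base before the target, with 0% and 0.562% for the initiator genes and 27.4% and 35.5% for the elongator genes. At position 54 alone the miCLIP libraries had 10.1% and 15.7% for the initiator, 17.9% and 7.67% for the elongator and 19.8% and 9.66% for the other genes, so the order was turned between the libraries. In iCLIP most of the counts of the elongator genes at positions 53 and 54 were at 54, with 7.64% to 25.8% by library, beside 1.37% to 7.20% for the initiator genes. The share at position 58 went the other way in miCLIP, with 69.6% and 71.3% for the initiator, 1.92% and 3.04% for the elongator and 8.57% and 8.31% for the other genes. In iCLIP the share at position 58 was higher for the initiator than for the other genes with T54 in 6 of 6 libraries, and higher than for the elongator genes in 5 of 6. Within the elongator genes it varied, from 129 of 478 counts in tRNA-Met-CAT-6-1 to 59 of 73 in tRNA-Met-CAT-3-2 in iCLIP of HEK293 cells.

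**Figure D4:**
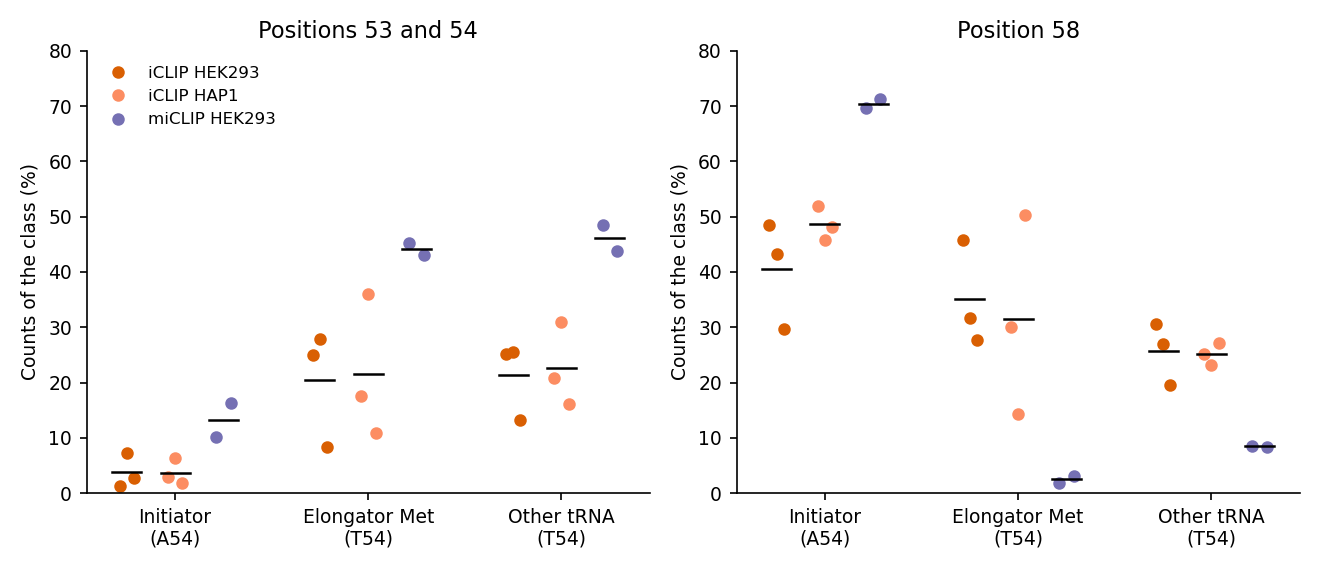
Percentage of the counts of each class of tRNA gene at positions 53 and 54 (left) and at position 58 (right), with a point for each library and a line at the mean of the group. The initiator genes lie lowest on the left in each group of libraries, and the miCLIP points on the right are near 70% for the initiator genes and under 10% for the other classes.

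Finally, iCLIP of the initiator genes was compared between the cell lines, a contrast in which the method is the same. All 7 genes had a higher mean in HEK293 than in HAP1 cells, by 0.25 (copy C) to 0.91 (copy B) on the log2(CPM) scale with a pseudocount of 1 count, as did 164 (44.6%) of the 368 loci tested. None passed limma's test over 368 loci at an adjusted p under 0.05, in which 2 loci (0.543%) were higher and 14 (3.8%) lower in HEK293 cells. Limma voom called none of the 7 at an adjusted p under 0.05 either. At an unadjusted p under 0.05 there were 53 of the 368 loci, 14 of them higher in HEK293 cells, and 1 of the 7 genes. With the replicate number as a block these were 76 loci, 26 higher, and 4 of the 7 genes, and with median-of-ratios size factors 57 loci, 21 higher, and 4 genes. For tRNA-iMet-CAT-1-1 the HEK293 libraries had 1.70%, 2.57% and 2.51% of their counts on the gene and the HAP1 libraries 0.935%, 1.34% and 1.82%, with an overlap between the lowest of the first and the highest of the second. Between libraries of the same replicate number, HEK293 was higher in 3 of 3 pairs, and so it was for the 7 genes together. Its log2 difference was 0.75 (SE 0.27, limma adjusted p = 0.183). With the replicate number as a block the adjusted p was 0.0642. With no filter beyond 1 count, tRNA-iMet-CAT-1-1 was called at a limma adjusted p of 6.51e-11, with the same log2 difference. That fit tested 12585 loci instead of 368 and called 5 higher and 7 lower in HEK293 cells. In the fit of 368 loci, the median over the 7 genes was 0.72, where the median of all loci tested was -0.12. With median-of-ratios size factors these medians were 0.87 and 0.01.

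HAP1 replicate 1 had the lowest level among the HAP1 libraries for every gene except copy B. Without it, 5 of the 7 genes had a higher mean in HEK293 cells, beside 123 (39.7%) of the 310 loci tested. Copy C and copy D were then at -0.13 and -0.0502, and the chr17 copy at 0.37 instead of 0.72. tRNA-iMet-CAT-1-5 was at 0.54 instead of 0.87 without it and at 1.29 without HEK293 replicate 1. Copy B fell from 0.91 to 0.37 without HEK293 replicate 3. Without HAP1 replicate 3, copies C and D were at 0.62 and 0.85, beside 0.25 and 0.54 with all libraries. Copy D was at 0.81 without HAP1 replicate 2. The leader counts given above are part of these levels.

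**Figure D5:**
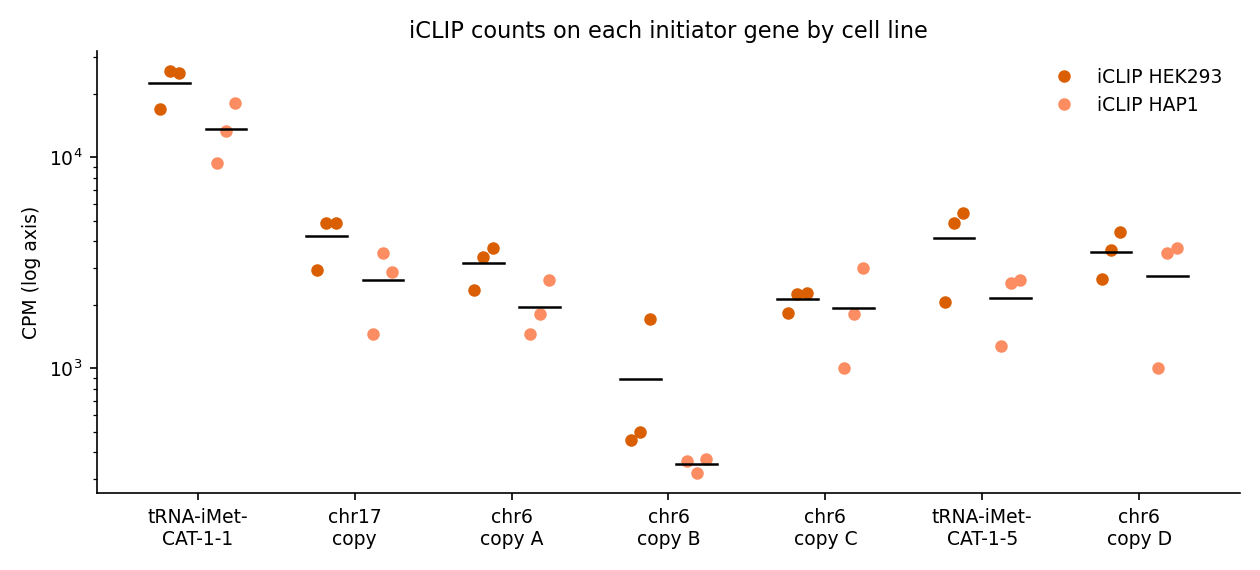
CPM of each initiator gene in the 3 HEK293 and 3 HAP1 iCLIP libraries, on a log axis, with a point for each library and a line at the mean. The HEK293 mean lies above the HAP1 mean for all 7 genes, and the points of the cell lines overlap for most of them.

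Single positions were tested in the same way. Of 532 positions tested, 23 were on the initiator genes and none of these was called by limma in either direction, beside 0 positions (0%) higher and 11 (2.07%) lower in HEK293 cells. At an unadjusted p under 0.05, 15 positions were higher and 52 differed in either direction. With the replicate number as a block, 24 positions were called, none of them on the initiator genes. All 23 positions on these genes had a higher mean in HEK293 cells, beside 277 (52.1%) of the 532 positions. Of the 23, 1 had an unadjusted p under 0.05 without the block. With the block 5 did, beside 78 of the 532 positions, 31 of them higher. Without HAP1 replicate 1, 20 of 23 had a higher mean in HEK293 cells, beside 51.4% of all 432 positions tested. Without HEK293 replicate 3 these were 21 of 22, beside 57.3% of 490. With no filter beyond 1 count they were 106 of 133, beside 55.6% of 18840. These positions lie on identical genes and share the libraries, so they are not independent of each other. At tRNA-iMet-CAT-1-1 the log2 differences were 0.39 (SE 0.41) at position 58, 1.05 (SE 0.62) at position 48, 0.56 (SE 0.67) at position 54 and 1.58 (SE 0.97) at the base 5 nt before the gene, with limma adjusted p of 0.811, 0.653, 0.835 and 0.688. Single libraries moved these values without turning them. Leaving out each in turn gave 0.20 (without HAP1 replicate 2) to 0.70 (HAP1 replicate 3) at position 58 and 0.63 (HEK293 replicate 2) to 1.55 (HAP1 replicate 2) at position 48. At position 54 it gave 0.030 (HEK293 replicate 2) to 1.18 (HEK293 replicate 1), and at the base 5 nt before the gene 0.58 (HAP1 replicate 1) to 2.77 (HAP1 replicate 3). The share of position 58 within tRNA-iMet-CAT-1-1 was 52.0%, 38.0% and 25.6% in the HEK293 libraries and 56.3%, 35.7% and 53.4% in the HAP1 libraries. The means differed by -9.94 percentage points, less than the SDs of 13.2 and 11.2, and a two-sided exact permutation test gave p = 0.4, where the smallest p it can give is 0.1.

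Over the 14 libraries, the CPM of tRNA-iMet-CAT-1-1 ran alongside that of the other 6 genes, with Spearman's rho of 0.84 (copy A) to 0.96 (tRNA-iMet-CAT-1-5). Among 365 other loci with at least 100 counts, the 5 most like it were VTRNA1-1 at chr5:140090857-140090929, a vault RNA (rho 0.96), a locus on an unplaced contig (0.96), tRNA-Gln-CTG-1-5 (0.94), a locus in RNU2-2P and WDR74 at chr11:62609143-62609245, where a U2 small nuclear RNA gene lies (0.93), and tRNA-Cys-GCA-2-4 (0.92). At VTRNA1-1 the counts were 125 and 72 in iCLIP of HEK293 and HAP1 cells, 25 in miCLIP, and 0 and 1 in FICC-Seq. These values share the libraries and their depths, and the groups of libraries differ in level, so they describe which loci follow the same order of methods.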

How the data were processed

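FICC-Seq and iCLIP of TRMT2A (HEK293 and HAP1, 3 libraries each) and miCLIP (HEK293, 2 libraries) were analysed. For each library the authors deposited whole cDNA counts per position with a sign for the strand, an other unit of value that is not scaled for depth. They were made with iCount, which removed duplicates by 5 random barcode bases and kept reads mapping uniquely to hg19 with bowtie. CPM was computed here from library totals of 7002 to 104605, so a count of 0 allows from 428 CPM in the smallest library to 28.7 CPM in the largest. Sequences were read from GRCh37. The genes, lists and tests were chosen with earlier results of these data known.

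iCLIP of the cell lines was compared with limma 3.58.1 (R 4.3.3) on log2(CPM) with a pseudocount of 1 count and a trended variance, over loci or positions with at least 3 counts in at least 3 of the 6 libraries, with Benjamini-Hochberg adjustment. A count model was planned, and limma was used in its place. The sign of a value marks only the strand, and the fits used the counts without it. Position 58 was tested by exact permutation of libraries, two-sided. Deviations from the group means correlated at 0.280, 0.407 and 0.215 between HEK293 and HAP1 libraries of the same replicate number over 368 loci, so a fit with the number as a block was added to the comparison. The pairing comes from these data. The labels give only the number, and the same 5′ barcode for the iCLIP libraries that share it. Genes named were the 7 initiator genes, the elongator methionine genes and the 5 loci of at least 100 counts with the highest Spearman's rho to tRNA-iMet-CAT-1-1. Alternatives covered the window, scaling, barcode collisions, weighting, filter, joining distance and leaving out replicates. The limma fit was tested on simulated counts. The permutation test and the numbering of positions were tested on small cases with known answers. Tables were made with pandas 2.3.3 and numpy 2.4.6, exact intervals with scipy 1.17.1, sequences with pysam 0.24.0 and figures with matplotlib 3.10.9, all in Python 3.11.15.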

Additional observations from a re-analysis of the deposited data

Results flagged for a closer look

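Outside the 7 genes, a further copy with the same sequence at chr6:27870271-27870342 on the minus strand had 16 counts over the 14 libraries, 10 in iCLIP of HEK293 cells and 6 in iCLIP of HAP1 cells. A copy that differed by 1 base, at chr6:27745664-27745735 on the plus strand, had 22 counts, of which 14 and 7 were in iCLIP of HEK293 and HAP1 cells and 1 in FICC-Seq of HAP1 cells. Both had A at position 54 and were left out of the comparisons above, and their counts exceeded the 3 that a count of 0 allows.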

How the results depend on the processing

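Leaving out each replicate in turn gave 0 to 13 called loci (16 with all libraries) and 0 to 11 called positions (11 with all). Loci fell to 1, 2 and 0 without HAP1 replicates 1, 2 and 3, and positions to 0 without any of them. The difference in the share of position 58 ranged from -16.7 to -3.45 percentage points and did not change sign. Without HAP1 replicate 1, copies C and D turned to log2 differences of -0.13 and -0.0502, and over all single omissions they ranged from -0.13 to 0.62 and from -0.0502 to 0.85. With the replicate number as a block, 24 positions and 19 loci were called. The difference at position 58 was then -9.94 points with p = 0.5 in an exact permutation within pairs, where 0.25 is the smallest p, and no call of an initiator gene changed. With no filter beyond 1 count, 6 positions and 12 of 12585 loci were called, with tRNA-iMet-CAT-1-1 among the loci. Of 2 settings chosen after seeing the data, limma voom called 7 positions and 24 loci, and a pseudocount of 3 counts called 14 positions and 17 loci. For iCLIP, the share of a library on the 7 genes, 3.30%, was 6.02% of the counts on tRNA loci and 1.49% without tRNA-iMet-CAT-1-1. For miCLIP it was 0.165% with the gene alone, 0.314% of the counts on tRNA loci and 0.0117% without tRNA-iMet-CAT-1-1, beside 0.173%. The miCLIP share at position 58 was 57.3% without tRNA-iMet-CAT-1-1, from 16 counts, beside 70.5%. The cause of these changes was not tested. The other 67 values of the main results moved by less than the spread between replicates, kept their sign and call or, for numbers of calls, stayed within a set factor. That factor is no measure of spread, as the 24 loci called by limma voom beside 16 stayed within it. Of 128 values of single genes and positions, 125 kept their sign and call. TMM scaling and a count-model test were not run. Depth limits FICC-Seq, where 14 counts carry the profile, and copy B.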
